A study of Chlamydomonas reinhardtii with 25 samples.

Results

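The 150 genes described here were higher than in unexposed cells after exposure to thulium, to yttrium and to a mixture of cerium, thulium and yttrium, and lay near the unexposed level after exposure to cerium. RNA was sequenced from Chlamydomonas reinhardtii, a unicellular green alga, in the wild-type strain CC-125. Cells in mid-exponential growth had been kept in TAP, an acetate medium, diluted 4-fold, at 20 °C with 12 h of light per day, and were washed in medium free of metal. All 25 libraries share an exposure medium of 10.0 µM calcium nitrate in NaHEPES buffer (10.0 mM, pH 7.0), in which the cells were held for 2 h. The control group received no further metal by its label, and the groups Ce, Tm and Y received 0.5 µM of 1 metal. Mix received the 3 metals in equal molar amounts, and it is not stated whether 0.5 µM was their total or the level of each. Every group holds 5 libraries, and the labels do not say whether these came from separate cultures, so the p-values rest on a spread between libraries that may be technical.

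The members were chosen by their group means in these same libraries. Counts were expressed as CPM, a relative abundance within the library total, after scaling by the TMM method of edgeR, which assumes that most genes do not change. Of 19526 transcripts in the table (called genes here), 7985 reached a mean of 5 CPM in at least 1 group. The change of a gene was taken as the log2 of its group mean plus 0.5 CPM, minus the same in the control. In 1900 genes the change in Ce was under 0.5 in either direction, and the 150 of these with the highest value of the lowest change among Tm, Y and Mix are the members. Their rise in Tm, Y and Mix and their small change in Ce are therefore a description of the choice and carry no test. The choice took no difference between Tm, Y and Mix, but it used the means of all 3 and keeps out genes in which 1 of them is low. The tests between these groups below were fitted over all genes and are not free of the choice, and the counts and shares of members called in them are descriptions.

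Cerium is a light rare earth element and thulium a heavy one, and yttrium, though not a lanthanide, is usually counted with the heavy elements because its ion is of a similar size to theirs. In water all of them are mainly trivalent ions, which bind many of the oxygen ligands that bind calcium, and cerium can also take a tetravalent form. Rare earth elements are taken up by green algae from the medium, and Chlamydomonas reinhardtii is widely used to study the response of algae to trace metals. The deposited table gives gene IDs with no names. The reference used here (RefSeq, assembly Chlamydomonas_reinhardtii_v5.5) pairs 113 of the 150 IDs with a locus tag but with no other symbol or role, so members are given by ID and no function is attached to them. The other 37 IDs matched no locus tag by exact text, which does not show that these genes are absent from the reference. Some, such as Cre03g1884001, hold a digit more than the matched IDs.

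Library totals ran from 12920957 to 28974088 counts, and all 150 members had enough counts to be tested. The controls spread most: the median SD of log2 CPM over the members was 0.38 in the control, 0.14 in Ce and likewise 0.14 in Tm, 0.12 in Y and 0.15 in Mix, against 0.36, 0.12, 0.17, 0.14 and 0.21 over all 7985 genes kept. Control library 1 stood apart. It had the lowest level of its group in 122 of the 150 members (81.3%), against 50.0% of all genes kept. Its scaling factor was 1.14, where those of the other controls ran from 0.713 to 0.902. In bulk RNA from a culture, a higher level in every cell and a larger share of cells that carry a transcript cannot be told apart.

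The choice by the lowest of the changes in Tm, Y and Mix sets a common floor for all 3. The median log2 change was 1.56 in Tm (range 1.17 to 3.56), 1.53 in Y (1.18 to 4.46) and 1.6 in Mix (1.17 to 3.17), against medians of 0.059, 0.11 and 0.065 over all genes kept. On the linear scale the medians correspond to 2.96, 2.90 and 3.03 times the control. Of the members, 12 had a lowest change of at least 2 on the log2 scale, 46 lay from 1.5 to 2 and 92 lay under 1.5. The last member inside the choice was Cre12g509950, at a lowest change of 1.169, and the first gene outside it was Cre01g006450, at 1.165. All 15 libraries of Tm, Y and Mix lay above all 10 libraries of the control and Ce in 146 of the 150 members, as they did in 13.6% of all genes kept. Since these contrasts chose the members, the edgeR quasi-likelihood test called every member higher than the control in Tm, Y and Mix (150 of 150 each, with a Benjamini-Hochberg adjusted p under 0.05), where it called 32.3%, 36.1% and 31.1% of all 12796 genes tested, and nothing is read from that count.

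**Figure D1:**
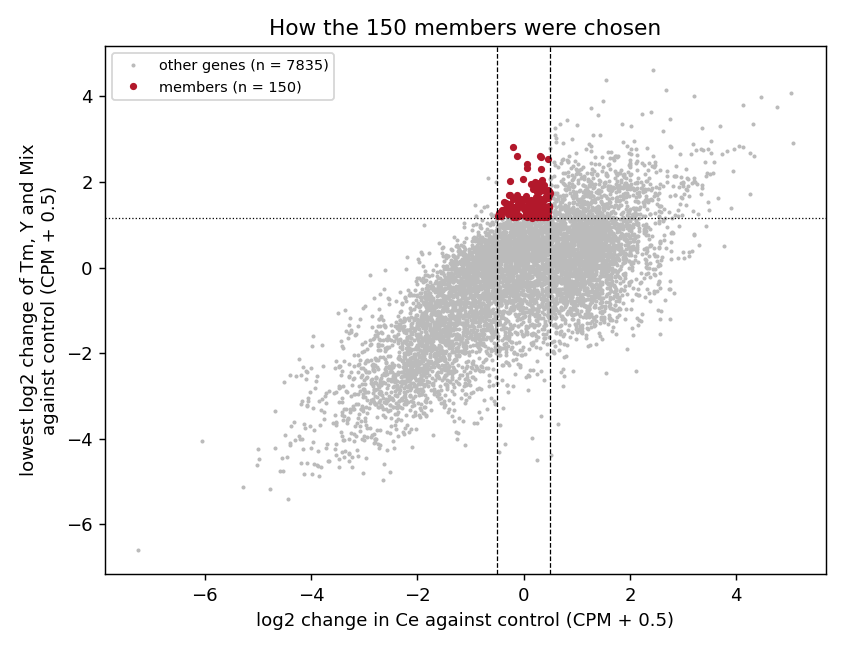
The log2 change in Ce against the control (horizontal axis) is plotted against the lowest log2 change of Tm, Y and Mix (vertical axis) for 7985 genes, with the 150 members in red, the limits of 0.5 on Ce as dashed lines and the lowest member's value of 1.17 as a dotted line. Most genes above the dotted line lie to the right of the members, where Ce also rises.

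In Ce the members lay near the control, as the choice required, but not evenly on both sides of it. The change in Ce was above 0 in 109 of the 150 members, with a median of 0.18 and a range from -0.47 to 0.49, against a median of -0.056 over all genes kept. The edgeR test called 48 members higher and 11 lower in Ce than in the control, against 45.4% and 35.8% of all genes tested, and these counts again describe the choice. The limit of 0.5 cut through a continuous range of values. Of 879 genes with a lowest change as high as that of the members, 718 were at or above 0.5 in Ce (553 of them at 1 or more), 150 were the members and 11 were at -0.5 or below. Just inside the upper limit, from 0.4 to 0.5, were 20 members, and just outside it, from 0.5 to 0.6, were 32 other genes.

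How near to the control Ce lies depends on the scaling of the libraries. TMM assumes that most genes do not change. After this scaling the edgeR test still called 45.4% of all genes tested higher and 35.8% lower in Ce than in the control. The assumption may therefore not hold for Ce. As a plain share of each library's counts, the members together made up 0.474% ± 0.029 in the control, 0.848% ± 0.023 in Ce but 1.54% ± 0.045 in Tm, 1.57% ± 0.039 in Y and 1.57% ± 0.016 in Mix (SD, n = 5 each). The Ce libraries thus lay between the control and the other exposures on this scale, with no overlap between these groups. The TMM factors of Ce were 1.42 ± 0.03, against 0.87 ± 0.17 in the control, and bring the Ce values down. Under scaling by library totals only, the median over all genes kept moved up by 0.70 in Ce, the members' median was 0.88, 131 members were at or above 0.5 in Ce and 19 of the 150 would still be chosen. Relative to the median of all genes kept, the members' median in Ce was 0.23 with TMM, 0.24 with library totals, 0.23 with DESeq2 size factors and 0.25 with control library 1 as the TMM reference. The same difference was 1.43 to 1.59 in Tm, Y and Mix over these 4 scalings. Subtracting this median removes most of any shift that all genes share, so the values are alike across scalings by construction.

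**Figure D2:**
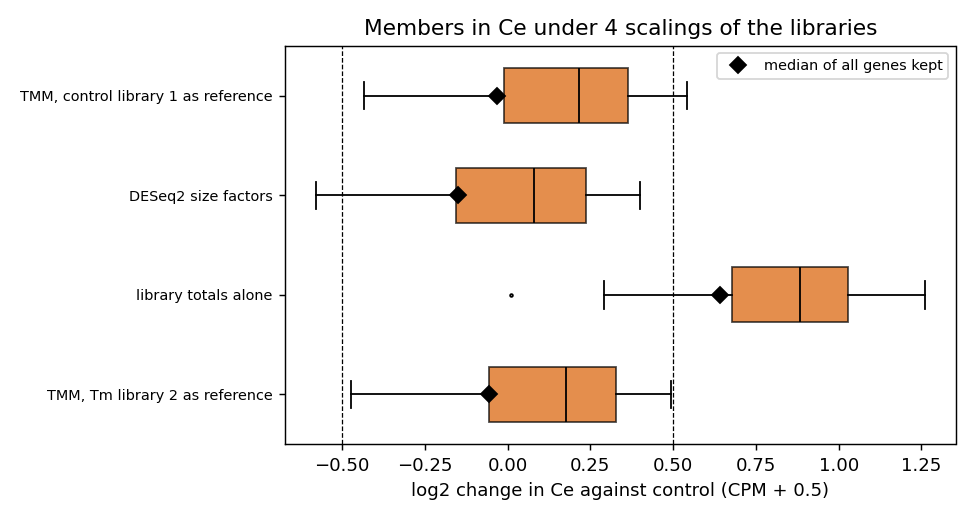
Log2 changes of the 150 members in Ce against the control (boxes with median, quartiles and whiskers of 1.5 times the quartile range, points beyond them) under 4 scalings of the libraries, with the median of all genes kept as a diamond. With library totals alone both the members (median 0.88) and all genes (0.64) shift to the right, past the upper limit of 0.5 for 131 members.

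Library by library, the median over the members lay lower in every control and Ce library than in any of Tm, Y and Mix. It was 9.27, 17.9, 16.1, 16.4 and 12.3 CPM in control libraries 1 to 5 and 17.2, 14.3, 16.3, 17.1 and 15.1 in the Ce libraries. In Tm it was 44.5, 42.1, 44.4, 45.5 and 44.3, in Y 43.2, 42.5, 47.5, 42.7 and 42.4, and in Mix 42.4, 44.5, 45.1, 49.3 and 43.1. Without control library 1 the medians of the changes were 0.091 in Ce but 1.48 in Tm, 1.43 in Y and 1.51 in Mix. All members stayed above 1 in Tm, Y and Mix, and 6 lay at -0.5 or below in Ce.

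**Figure D3:**
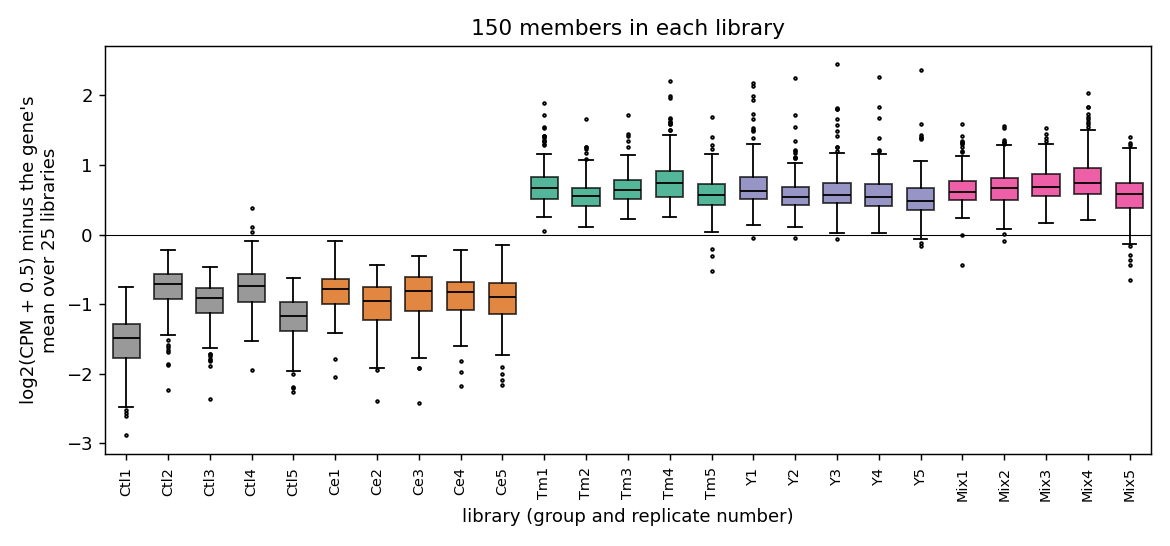
Log2(CPM + 0.5) of the 150 members in each of the 25 libraries, minus each gene's mean over all libraries (boxes with median and quartiles, whiskers of 1.5 times the quartile range, points beyond them). Control and Ce libraries lie below 0 and the 15 libraries of Tm, Y and Mix above it, with control library 1 the lowest.

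Most of the 10 members with the highest lowest change had only a few CPM in the control. Cre06g258550 stood first, at 0.723, 1.86, 1.55, 2.72 and 1.42 CPM in control libraries 1 to 5 and 1.23, 0.877, 0.842, 2.47 and 1.43 in Ce. In the other exposures it read 26.2, 16.3, 16.8, 32.6 and 18.6 CPM in Tm, 20.3, 11, 12.2, 18.3 and 12.2 in Y and 21.2, 13.3, 10.2, 22.4 and 15.1 in Mix. Every exposed library outside Ce was therefore several times above every control and Ce library, with library 4 the highest in Tm and Mix. The log2 changes were -0.20 in Ce but 3.39 in Tm, 2.83 in Y and 2.97 in Mix.

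Cre12g537250 came next, with 0.803, 2.44, 1.93, 3.05 and 1.23 CPM in the control and 2.53, 1.62, 1.6, 1.52 and 1.27 in Ce. It reached 25.6, 11.2, 21.2, 31.1 and 14.1 CPM in Tm, 35.6, 16.8, 27.4, 27.7 and 13.9 in Y and 16.9, 11.1, 12.5, 19.4 and 10.3 in Mix. The libraries of each of these groups spread widely, and Tm, Y and Mix overlapped. g7908, an ID with no match in the reference, was at 1.26 ± 0.50 CPM in the control, 1.69 ± 0.318 in Ce but 13.2 ± 2.96 in Tm, 10.2 ± 2.42 in Y and 15.3 ± 3.27 in Mix (mean ± SD, n = 5, as for the pairs of values that follow).

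Cre12g556700 was nearly undetected without thulium or yttrium. The 5 control libraries held 6 counts of it in all, at 0.0803, 0.0443, 0, 0.165 and 0.0617 CPM, and the Ce libraries 31 counts, at 0.241, 0.164, 0.337, 0.0659 and 0.27 CPM. Its levels in the other groups did not overlap each other: 4.63, 5.63, 7.94, 7.65 and 5.24 CPM in Tm, 10.8, 11.7, 13.4, 11.8 and 12.7 in Y and 2.06, 2.48, 4.32, 3.61 and 2.15 in Mix. Y was the highest in each comparison and Mix the lowest. Because of the 0.5 CPM added, the log2 changes of this gene (3.56 in Tm, 4.46 in Y and 2.59 in Mix) understate the ratio of its counts.

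The remaining members of the first 10 started from 1.69 to 21.2 CPM in the control. Cre01g013100 went from 1.69 ± 0.60 CPM to 13.1 ± 3.41 in Tm, 14.9 ± 5.5 in Y and 12.2 ± 1.62 in Mix, with 2.52 ± 0.33 in Ce, near the upper limit of the choice (0.46 on the log2 scale). Cre10g464264 was at 4.35 ± 1.41 CPM in the control and 4.56 ± 0.965 in Ce, and at 36.2 ± 7.17 in Tm, 47.2 ± 9.24 in Y and 23.9 ± 6.3 in Mix. Its Mix libraries, at 28.5, 29.8, 23.2, 24.1 and 13.8 CPM, all lay below the lowest Y library at 39.1 CPM. Cre10g457100 had the same mean in the control and Ce to within the spread, 21.2 ± 7.8 and 21.2 ± 3.68 CPM, and reached 102 ± 13.7 in Tm, 121 ± 16.8 in Y and 91.4 ± 18.8 in Mix. Cre02g100800 and Cre13g604200 went from 2.63 ± 0.905 and 2.86 ± 0.646 CPM to 19.2 ± 4.03 and 17 ± 5.3 in Tm. The last of the 10, an ID with no match in the reference, stood sixth and was at 15.9 ± 8.87 CPM in the control, 16.6 ± 7.06 in Ce but 95.6 ± 26.6 in Tm, 87.7 ± 17.2 in Y and 90.6 ± 22.9 in Mix.

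**Figure D4:**
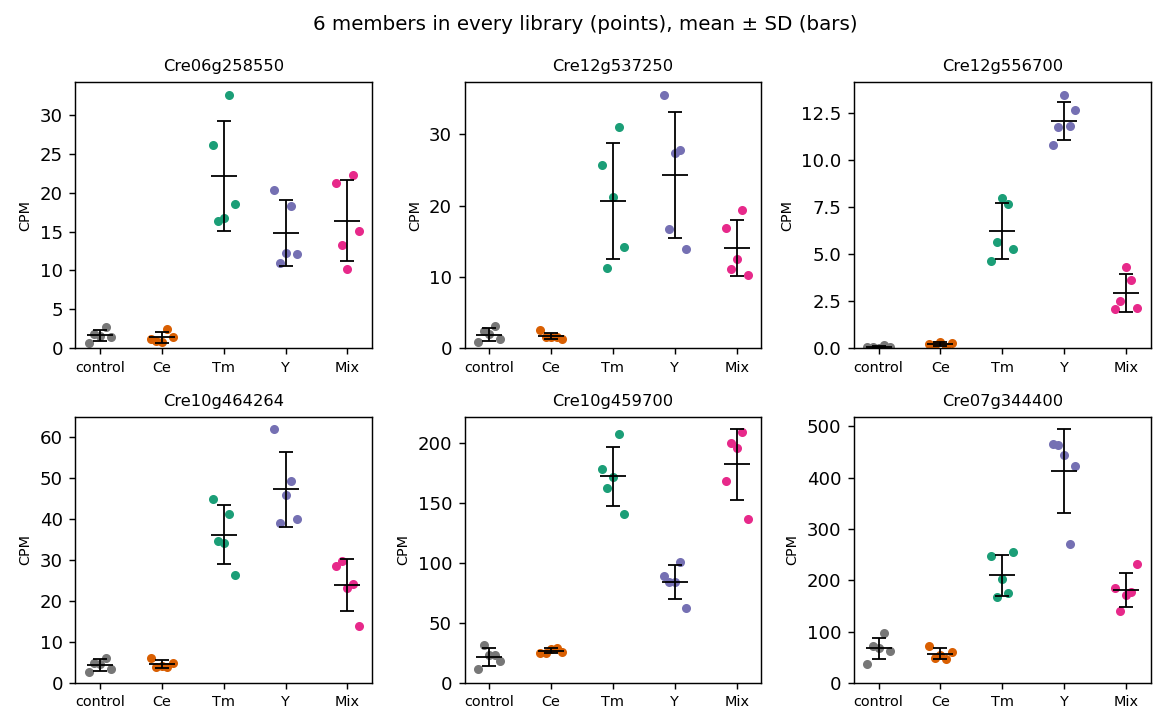
CPM of 6 members in each of the 25 libraries (points, libraries 1 to 5 from left to right within a group), with the mean and SD of each group of 5 as bars. Control and Ce lie together at the bottom of each panel, while the order of Tm, Y and Mix differs between genes: Y is highest for Cre12g556700 and Cre07g344400 and the lowest of these 3 for Cre10g459700.

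Other members had far higher CPM, a value not corrected here for transcript length. The mean CPM over all libraries had a median of 31.7 among members and 18.1 among all genes kept. In Tm, Y and Mix together 18 members averaged under 10 CPM, 93 from 10 to 100 CPM and 39 over 100 CPM. Cre16g663950 had the highest mean, with 222, 396, 337, 347 and 309.9 CPM in the control and 364, 322, 389, 359 and 373 in Ce. It reached 838, 777, 781, 836 and 827 CPM in Tm, 791, 726, 749, 746 and 761 in Y and 866, 889.5, 904, 952 and 886 in Mix, so every library of these groups lay above every control and Ce library. Cre12g522700 went from 205 ± 59 CPM in the control and 188 ± 15.9 in Ce to 742 ± 80.1 in Tm, 644 ± 55.2 in Y and 746 ± 56.7 in Mix. Cre03g180750 had a mean of 193 ± 26.1 CPM in Ce and 245 ± 59.7 in the control, with overlapping libraries, and 683 ± 174 in Tm, 862 ± 136 in Y and 625 ± 191 in Mix. Cre03g182050 lay near the limit on the other side, at 268 ± 25.9 CPM in the control, 363 ± 15 in Ce and 654 ± 26.3 in Tm.

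Thulium and yttrium were then set against each other. The test found 16 members higher and 7 lower in Tm than in Y (10.7% and 4.67% of the members), against 9.60% and 11.2% of all genes tested, and 1 of these differences reached 2-fold. The median log2 difference was 0.043 among members and -0.044 among all genes. Cre10g459700 was the member with the largest difference toward Tm, at 179, 162, 172, 208 and 141 CPM in Tm, against 89.4, 84.3, 84.4, 101 and 62.2 in Y, with no overlap (log2 difference 1.03 ± 0.17, edgeR adjusted p = 0.000111). Its control and Ce levels were 21.5 ± 7.31 and 26.7 ± 2.05 CPM. Cre05g243354, with 24.5 ± 8.84 CPM in Tm against 12.7 ± 2.49 in Y, followed (0.95 ± 0.27, edgeR adjusted p = 0.0141), and this call was lost without Tm library 4 (adjusted p = 0.0629, edgeR). Cre17g714229 averaged 16.7 ± 3.19 CPM in Tm against 10.0 ± 1.47 in Y (0.74 ± 0.15, edgeR adjusted p = 0.000921).

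Higher in Y than in Tm were Cre07g344400, Cre02g073550 and Cre12g556700, each by almost 2-fold. Cre07g344400 read 466, 463, 444, 270.1 and 423 CPM in Y and 247, 168, 202, 175 and 256 in Tm, where the lowest Y library, number 4, still lay above every Tm library (-0.98 ± 0.19, edgeR adjusted p = 0.000526). Its levels without these metals were 67 ± 21.3 CPM in the control and 56.4 ± 10.7 in Ce. Cre02g073550 read 70.7, 41.5, 64.5, 40.7 and 48 CPM in Y and 37.9, 20.0, 31.9, 24.3 and 21.6 in Tm, with every Y library above every Tm library (-0.96 ± 0.18, edgeR adjusted p = 0.00041). For Cre12g556700, whose values stand above, the log2 difference was -0.96 ± 0.20, edgeR adjusted p = 0.00134. With only the Tm and Y libraries in the fit, 32 members were higher and 12 lower in Tm, where the shares over all genes also moved, to 19.5% and 22.0%. With scaling to control library 1 the counts were 30 and 5, against 16.2% and 7.56% of all genes, and with library totals alone 16 and 11, against 10.8% and 9.70%. Without control library 1 in the fit they were 23 and 11, against 14.1% and 15.7%.

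Against yttrium the mixture differed in more members. The test called 33 members higher and 15 lower in Mix than in Y (22.0% and 10.0%), against 16.5% and 19.2% of all genes tested. The median log2 difference was 0.088 among members and -0.048 among all genes. By group mean Mix was the highest of Tm, Y and Mix in 72 members, Y in 51 and Tm in 27, while Y was the lowest in 77, Mix in 49 and Tm in 24. Over all genes kept Mix was the highest in 39.4%, Y in 44.9% and Tm in 15.6%, and Y was the lowest in 45.1%, Mix in 38.1% and Tm in 16.8%. The leading member was Cre17g714229, at 23.6, 27.2, 21.2, 28.4 and 19 CPM in Mix and 11.6, 11.3, 9.26, 9.83 and 8.04 in Y, with no overlap (1.25 ± 0.15, edgeR adjusted p = 3.43e-07). It was at 3.35 ± 0.676 CPM in the control and 4.51 ± 0.518 in Ce. Cre03g207100 read 11, 15.2, 15.3, 17.1 and 15.9 CPM in Mix and 5.85, 6.72, 7.51, 6.26 and 7.16 in Y (1.16 ± 0.17, edgeR adjusted p = 1.01e-05), and Cre10g459700 was at 182 ± 29.5 CPM in Mix (1.11 ± 0.17, edgeR adjusted p = 1.17e-05).

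Lower in Mix than in Y was Cre12g556700 by the most (-2.05 ± 0.21, edgeR adjusted p = 4.21e-08), followed by Cre02g073550 at 20.6 ± 3.22 CPM in Mix (-1.36 ± 0.18, edgeR adjusted p = 1.73e-06) and Cre07g344400 at 181 ± 32.7 CPM (-1.19 ± 0.19, edgeR adjusted p = 1.98e-05). These are the 3 members named above as higher in Y than in Tm. Of the 23 members called between Tm and Y, all 23 were also called between Mix and Y, 22 of them in the same direction. Both comparisons share the Y libraries, and 89.9% of all genes called between Tm and Y were called between Mix and Y. With scaling to control library 1, 60 members were higher and 11 lower in Mix than in Y, and the shares over all genes moved with them, to 25.5% and 12.3%. With library totals alone the counts were 34 and 24, against 16.3% and 19.1% of all genes.

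Between Mix and thulium alone few members were separated. The test called 1 member higher and 2 lower in Mix (0.667% and 1.33%), against 0.203% and 0.914% of all genes tested, while 13 and 6 had an unadjusted p under 0.05, as did 3.99% and 5.62% of all genes. Lower in Mix was Cre03g1884001, an ID with no match in the reference, at 34.1, 42.6, 36.1, 36.5 and 43.8 CPM in Tm and 9.55, 14.4, 14.9, 16.1 and 13.3 in Mix. It read 23.7, 28.9, 25.5, 18.3 and 26.8 CPM in Y, so that every Mix library lay below every Y library and every Y library below every Tm library. The log2 difference from Tm was -1.50 ± 0.15, edgeR adjusted p = 2.54e-07, and that from Y -0.85 ± 0.15, edgeR adjusted p = 7.32e-05. Cre12g556700 was the other member lower in Mix (-1.09 ± 0.21, edgeR adjusted p = 0.00451). In the fit without a block, these 2 were the members called below both Tm and Y in Mix.

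The member higher in Mix was Cre06g263550, an abundant transcript. It read 560.1, 509, 544, 594 and 654 CPM in Tm, 603, 516, 577, 555 and 643 in Y and 754, 715, 722, 837 and 937 in Mix, with every Mix library above every Tm and Y library. It was higher than Tm (log2 difference 0.47 ± 0.11, edgeR adjusted p = 0.0332) and higher than Y (0.45 ± 0.11, edgeR adjusted p = 0.00287). The call against Tm was lost when Mix library 4 or 5 or any of Tm libraries 1 to 4 was left out (edgeR adjusted p = 0.0569 to 0.139), though the log2 difference stayed from 0.40 to 0.48. With the replicate number as a block, described next, it was 0.47 ± 0.03 (edgeR adjusted p = 1.06e-12), higher in Mix in 5 of 5 pairs. That pairing is given by no label and was read from the same libraries. Cre06g263550 was at 201 ± 36.9 CPM in the control and 187 ± 22.7 in Ce.

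Libraries of Tm and Mix with the same replicate number deviated together, and a fit of these groups with that number as a block separated many more members. The pairing was taken from these deviations, so p-values with the block depend on it. Without the block, the same 10 libraries gave 2 members higher and 3 lower, against 0.296% and 1.07% of all 10817 genes tested. With the block 27 members were higher and 19 lower in Mix (18% and 12.7%), against 11.9% and 10.4% of these genes. The shares over all genes thus rose as well. The differences were small, with a median size of 0.24 on the log2 scale among those called, and 2 of them reached 2-fold. Cre10g464264 was lower in Mix, with a log2 difference of -0.62 ± 0.07 (edgeR adjusted p = 7.58e-07 with the block), as were Cre12g537250 at -0.53 ± 0.09 (1.97e-05, edgeR adjusted p with the block) and Cre06g258550 at -0.43 ± 0.08 (6.26e-05, likewise). Each was lower in Mix in 5 of 5 pairs of the same number. With the block, 8 members were lower in Mix than in Tm and also called lower in Mix than in Y. The share of all genes with both calls was not counted, so nothing is read from this number. Cre17g714229 (0.51 ± 0.08), Cre07g312580 (0.52 ± 0.07) and Cre03g207100 (0.45 ± 0.09) were higher in Mix in 5 of 5 pairs, with edgeR adjusted p of 1.24e-05, 5.13e-06 and 0.000153 with the block. The largest difference upward was that of Cre10g434650 (0.55 ± 0.08, edgeR adjusted p = 1.76e-06 with the block), a gene picked out after its values were seen.

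**Figure D5:**
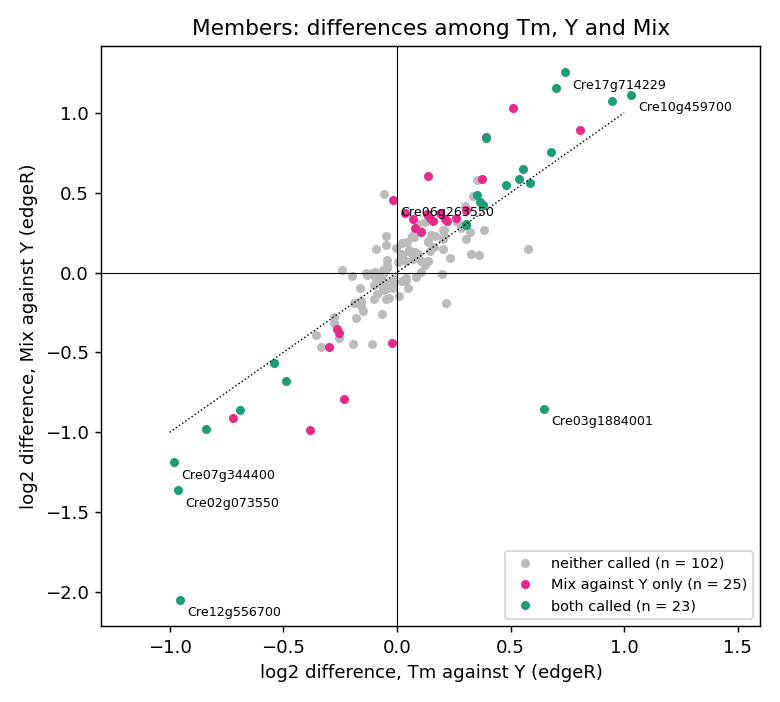
Log2 differences of the 150 members between Tm and Y (horizontal axis) and between Mix and Y (vertical axis) from edgeR, coloured by whether the adjusted p was under 0.05, with a dotted line where Tm and Mix are equal. The axes share the Y libraries, 102 members are called in neither comparison, and Cre03g1884001 lies far below the dotted line.

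In 102 of the 150 members none of the comparisons among Tm, Y and Mix without the block was called, a share of 68% against 62.1% of all genes tested. A further 17 (11.3%, against 7.91% of all genes) were higher in Mix than in Y with no other call, and 15 (10%, against 8.46%) were higher in both Tm and Mix than in Y. Lower in Mix than in Y with no other call were 7 (4.67%, against 8.52%), and 6 (4%, against 9.96%) were lower in both Tm and Mix than in Y. The remaining 3 are Cre12g556700, Cre03g1884001 and Cre06g263550. An absent call does not show equal levels.

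Some members were neighbours on the chromosome in the reference assembly. Among the 113 members with a locus tag were 5 pairs with no annotated gene between them. Pairs that include any of the 37 members without a matched locus tag could not be seen, so there may be more. The pair Cre02g100750 and Cre02g100800 was at 1.4 ± 0.573 and 2.63 ± 0.905 CPM in the control and at 9.08 ± 1.72 and 19.2 ± 4.03 in Tm. Cre07g312550 and Cre07g312580 went from 2.3 ± 0.656 and 4.18 ± 2.23 CPM in the control to 17.1 ± 2.34 and 32.6 ± 4.66 in Mix, and both were higher in Mix than in Y (0.85 ± 0.18, edgeR adjusted p = 0.000459, and 1.03 ± 0.20, edgeR adjusted p = 0.000214). No source used here gives the counting program or its use of strand, so reads of neighbouring genes that overlap cannot be told apart.

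Cre03g174150 and Cre03g174200 formed another pair, at 14.2 ± 4.98 and 45 ± 13.1 CPM in the control and 50.6 ± 4.91 and 171 ± 14.3 in Y, with 47.4 ± 3.49 and 155 ± 17.5 in Mix. Cre13g577500, whose ID stands on 2 lines of the table, and Cre13g577550 were at 5.6 ± 1.49 and 10.3 ± 2.34 CPM in the control and 16.2 ± 3.29 and 58.4 ± 12.5 in Tm. Cre05g243353 and Cre05g243354 varied together between libraries. Cre05g243353 read 7.31, 15.4, 16, 49.6 and 15.2 CPM in the control, 154, 95.5, 108, 224 and 134 in Tm and 137, 144, 124, 235 and 117 in Mix. Its neighbour Cre05g243354 read 2.69, 4.52, 3.48, 10.6 and 3.39 CPM in the control, 29.8, 16.2, 17.3, 37.1 and 22.3 in Tm and 28.9, 22.3, 20.4, 42 and 20.2 in Mix. In each of these groups library 4 was the highest for both genes.

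Genes beside the members that are not members themselves were also examined. Of 84 such neighbours kept, 19 (22.6%) had a lowest change of at least 1 on the log2 scale, against 13.1% of 5374 genes kept that have a locus tag and are neither members nor these neighbours. The lowest change was above 0 in 60.7% of the neighbours and in 46.1% of those genes. These shares are descriptions and were not tested. They do not cover most neighbours: of 226 positions beside members, 94 held a gene matched by ID and kept, neighbouring members included.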

How the data were processed

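RNA of 25 libraries was measured, 5 in each of 5 groups taken from the sample titles. The deposited table holds raw whole-number counts per transcript. The libraries were poly(A)-selected and stranded and were read as pairs, per the labels' protocols. Per the submitters' processing notes, the tools included Trim Galore (0.3.7), SAMtools (1.2) and TopHat2 (2.0.14). No counting program, genome build or annotation is given in the sources used here. In 34 cells the text "PAC:" stood within the number and was removed, and no member held such a cell. A further 1502 IDs stand on 2 lines each, 2 members among them, and were kept as deposited.

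TMM factors were computed on all rows with Tm library 2 as the reference. CPM and the changes that chose the members used them, and so did the tests: the edgeR 4.0.16 quasi-likelihood test in R 4.3.3 (robust) on 12796 genes passing filterByExpr, all 25 libraries in 1 fit with a coefficient per group, with Benjamini-Hochberg adjustment over all genes tested and calls at 0.05. The scripts were tested on simulated counts. Values after ± are SDs for CPM and standard errors for log2 differences (the difference divided by the square root of F). No 2 libraries of a group were alike within sampling noise (lowest chi-square per degree of freedom 5.45).

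The members, lists and tests were chosen with earlier results of these data known. Named members are the 10 with the highest lowest change, the 5 most abundant, the 3 with the largest called difference each way per comparison, the genes on either side of the limit, and neighbours; IDs without a match in the reference are printed for 2 members. Promoter and protein features were planned and not analysed here, for want of sequences.

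Same-numbered libraries of Tm and Mix deviated together from their group means (correlations across genes 0.292 to 0.584, all 5 over 0.1), so the numbers were taken to pair them. No label states this pairing, which rests on the data. Each Tm and Mix library also correlated best with its own number, 5 of 5 each way. For Mix and the control the correlations were 0.124 to 0.658, all 5 over 0.1. There 5 Mix libraries but only 2 control libraries correlated best with their own number. That comparison chose the members, and no block was fitted for it. Alternatives covered DESeq2 1.42.0, other scalings, the low-count filter, the groups in the fit, the replicate block, single libraries and the settings of the choice.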

Additional observations from a re-analysis of the deposited data

Results flagged for a closer look

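Over the named members and the median of all members, 155 sets of 5 libraries were examined (1 per group), and 15 had 1 library far from the other 4 by Dixon's test, where chance flags about 1 in 20. Of these, 9 concern library 4 of the control, Ce, Tm or Mix, high in each case.

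Among the neighbouring pair Cre05g243353 and Cre05g243354, Cre05g243353 stood at 49.6 CPM in control library 4 (others 7.31 to 16.0), 32.2 CPM in Ce library 4 (others 18.7 to 22.6) and 235 CPM in Mix library 4 (others 117 to 145), and Cre05g243354 stood at 10.6 CPM in control library 4 (others 2.69 to 4.52). Among the pair Cre13g577550 and Cre13g577500, Cre13g577550 stood at 17.7 CPM in Ce library 4 (others 11.4 to 12.3) and 80.2 CPM in Tm library 4 (others 50.4 to 57.5), and Cre13g577500 at 22.0 CPM in Tm library 4 (others 14.2 to 16.2). Mix library 4 was also far above the rest for Cre07g312580, at 40.7 CPM (others 28.8 to 31.9), and for Cre03g174150, at 53.5 CPM (others 44.8 to 47.1).

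In Y library 4 the direction was the opposite: Cre03g180750 stood at 624 CPM (others 888 to 948) and Cre07g344400 at 270 CPM (others 423 to 466). Y library 5 had 11 CPM of Cre02g100800 (others 15.3 to 16.8). Ce library 1 had 4.94 CPM of Cre02g100800 (others 2.87 to 3.24) and 2.53 CPM of Cre12g537250 (others 1.27 to 1.62). The median CPM over all 150 members was 47.5 in Y library 3, against 42.4 to 43.2 in the other Y libraries. What sets these libraries apart was not tested.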

How the results depend on the processing

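Of the 150 members, 19 would be chosen with library totals alone, 75 with a limit of 0.25 on Ce and 58 with a limit of 1. Under 9 other settings of the choice 110 to 150 were kept, and leaving out single libraries kept 124 (without control library 4) to 149. For Mix against Tm, 1 member was higher, against 0.203% of all genes tested. This was 3 with DESeq2 (0.461% of all genes) and 2 with library totals alone (0.328%). It was 2 with only these groups in the fit (0.296%) and 3 with scaling to control library 1 (0.485%). Without single libraries it was 0 to 2, where the share over all genes ran from 0.0309% to 0.589%. It was 0 without Mix library 4 or any of Tm libraries 1 to 4, and 2 without control library 1 or Mix library 1. The 2 lower members were 2 to 3 without single libraries (0.634% to 1.47% of all genes). With the replicate block the higher and lower counts were 27 and 19 (11.9% and 10.4% of all genes). For Mix against Y the 33 higher were 60 with control library 1 as the reference (25.5% of all genes). They were 25 to 40 without single libraries (13.3% to 20.3%). The 15 lower were 24 with library totals alone (19.1%) and 13 to 19 without single libraries (14.9% to 22.8%). For Tm against Y the 16 higher were 32 with only these groups (19.5% of all genes). They were 30 with control library 1 as the reference (16.2%), and 11 to 23 without single libraries (6.8% to 14.1%). The 7 lower were 11 with library totals alone (9.7%) and 12 with only these groups (22%). Without single libraries they were 5 to 11, the most without control library 1 (7.57% to 15.7% of all genes). The cause of these shifts was not tested.

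The fits with the replicate block hold only the groups compared. For Mix against Y they gave 51 higher and 27 lower (24.9% and 27.5% of all genes), where the same libraries without the block gave 48 and 22 (23.7% and 25.7%). For Tm against Y they gave 49 and 20 (23.4% and 26.1% of all genes), against 32 and 12 without the block (19.5% and 22.0%). There the numbers pair the libraries less clearly than in Tm and Mix. Same-number correlations for Mix and Y were 0.00593 to 0.335, with 3 of 5 over 0.1. For these, 2 Mix and 3 Y libraries correlated best with their own number. For Tm and Y the correlations were 0.0913 to 0.324, with 4 of 5 over 0.1. Here 4 of 5 libraries each way correlated best with their own number, so a partial pairing may be present. Over 29 called differences of single members and 899 alternatives, 857 kept their call and direction, 42 lost the call and 0 turned in direction. Many of these alternatives leave out a library of a group outside the comparison. That hardly moves the log2 difference, so the 857 overstate how firm the calls are. The lost calls belong to Cre05g243353, Cre05g243354, Cre06g263550, Cre12g537250, Cre16g663950 and g7908. Levels of a few counts per library, as for Cre12g556700 in the control, limit its ratio.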

Other observations

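Outside the 150 members, genes were ranked by how closely their log2 CPM followed the members' mean over the 25 libraries. The 5 with the highest Pearson correlation had a change in Ce within the limit of the choice. As non-members they therefore had to have a lowest change below that of every member. Their smaller changes follow from the choice, and nothing is read from them. Of these 5 genes, 3 matched a locus tag. Cre02g101400 (r = 0.995) was at 638 CPM in the control and 688 in Ce, and at 1335, 1339 and 1353 in Tm, Y and Mix, a lowest log2 change of 1.07. Cre09g388750 (r = 0.993) went from 227 CPM in the control and 249 in Ce to 426 in Tm, 416 in Y and 435 in Mix. Cre07g353550 (r = 0.991) was at 64.1 CPM in the control and 68.4 in Ce, and at 157, 144 and 166 in Tm, Y and Mix, with a lowest change of 1.16 that falls just short of the choice. The members themselves had correlations of 0.848 to 0.995 with this mean, of which they are part. The libraries share their groups, so these correlations describe the pattern of the groups and carry no p.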
